A study of Mus musculus with 8 samples.

Results

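The genes described here are 10 transcription factors and products of sensory neurons: Pou4f1, Pou4f2, Pou4f3, Tlx3, Isl2, Runx1, Runx3, P2rx3, Avil and Fxyd2. They were chosen by their measured values, because members of the group moved apart in tumor 7 of a series of 8 mouse neuroblastomas. Of the 10 genes, 9 had at least 1 probe set assigned to a single gene, together 21 probe sets, out of 18194 genes so measured on the array. Pou4f2 had none in the annotation used and has no value here. Since tumor 7 chose the genes, its values for them, and every site difference that includes it, are given as a description without a test. The comparison of tumor 8 with the adrenal tumors and the spread among the adrenal tumors left out the values of tumor 7. The choice of 1 probe set per gene and the filter on low values, described below, used all 8 tumors.

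Total RNA of 8 untreated tumors from LSL-MYCN;Dbh-iCre mice was hybridised to Affymetrix mouse expression arrays, each tumor on 1 array. In these mice of mixed strain background, human MYCN is expressed from the CAG promoter at ROSA26 once Cre has removed a stop cassette, and Cre is driven by regulatory sequence of Dbh, an enzyme of noradrenaline synthesis. All 8 tumors shared this genotype, so that no group lacked the transgene. The adrenal gave tumors 1 to 6, and the superior cervical ganglion, part of the sympathetic chain, gave tumors 7 and 8. Normal tissue was not analysed here. The ages of the mice, and whether each tumor came from a different mouse, were not given in the sources used here, and p-values therefore measure the spread between these samples.

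Sensory neurons of the dorsal root and cranial ganglia arise from the neural crest and from placodes, and most of them switch on the POU homeodomain factor Pou4f1 (Brn3a) as they leave the cell cycle. Pou4f1 acts with the LIM homeodomain factor Isl1 to repress earlier programmes and to set up subtype genes, among them the Runx factors, with Runx1 associated with nociceptors and Runx3 with proprioceptors. Sympathetic neurons and chromaffin cells come from the neural crest as well but follow a separate route under factors such as Hand2 and Gata3, which leads to the enzymes and transporters of noradrenaline.

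Values were deposited as log2 expression. A probe set was called detected where it exceeded the 95th percentile of the same array's 86 probe sets for receptors of smell, pheromones and taste, a limit that lay between 6.71 and 7.21 in the 8 tumors. The probe set with the highest mean stood for its gene, and levels of different probe sets were not compared with each other. Of the 9 measured genes, 4 were detected in all tumors, 4 in some and 1 in none. A low-value filter, log2 5 in at least 2 tumors, was passed by 16254 genes, among them 8 of the 9, all but Pou4f3. Tumor 6 carried liver transcripts (Alb at 14.09, against 5.62 to 5.96 in the other tumors). The Gapdh signal of tumor 1 was 5.51 higher at the 3' end than at the 5' end of the transcript. That gap was next largest in tumor 7, at 1.57, and was 0.47 to 1.14 in the rest. For actin the gap was 2.77 in tumor 1, 1.85 in tumor 7 and 0.64 to 1.35 in the rest. The part of these gaps in the tumor 7 values was not tested.

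Pou4f1 was detected in tumor 7 alone. Its representing probe set, 1429667_at, stood at 5.49, 4.99, 4.93, 5.05, 5.42 and 5.05 in adrenal tumors 1 to 6, at 9.92 in tumor 7 and at 4.95 in tumor 8. The other 7 values lay below the detection limit of their arrays, and tumor 7 was 4.42 above the highest of them. With those values raised to the limits of their arrays, tumor 7 was at least 2.98 above the mean of the other tumors on the log2 scale, and the measured difference was 4.79. A separate Pou4f1 probe set, 1429668_at, gave the same picture, with 8.53 in tumor 7 and 3.60 to 3.88 elsewhere. Because the samples are bulk tissue, fewer cells of a type and less RNA per cell cannot be told apart for this or any other gene below.

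Pou4f3, the family member of auditory and vestibular hair cells, was detected in no tumor. It ranged from 4.11 to 4.36 in the adrenal tumors, with a median of 4.25, and stood at 3.99 in tumor 7 and 4.47 in tumor 8. Of 9 hair cell markers, 1 was detected in all tumors and 6 in none (Atoh1, Gfi1, Myo6, Otof, Espn and Tmc1), and the tumor 7 difference had a median of -0.13 and a mean of 0.36 over the list. Lhx3, a LIM homeodomain factor also found in motor neuron and pituitary precursors, stood at 8.27 in tumor 7 against 6.13 to 6.49 elsewhere, and the cadherin Pcdh15 at 7.81 against 5.16 to 5.95. Both were detected in tumor 7 alone, whereas Atoh1, the factor that founds the hair cell lineage, stayed at 5.17 to 5.60.

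**Figure D1:**
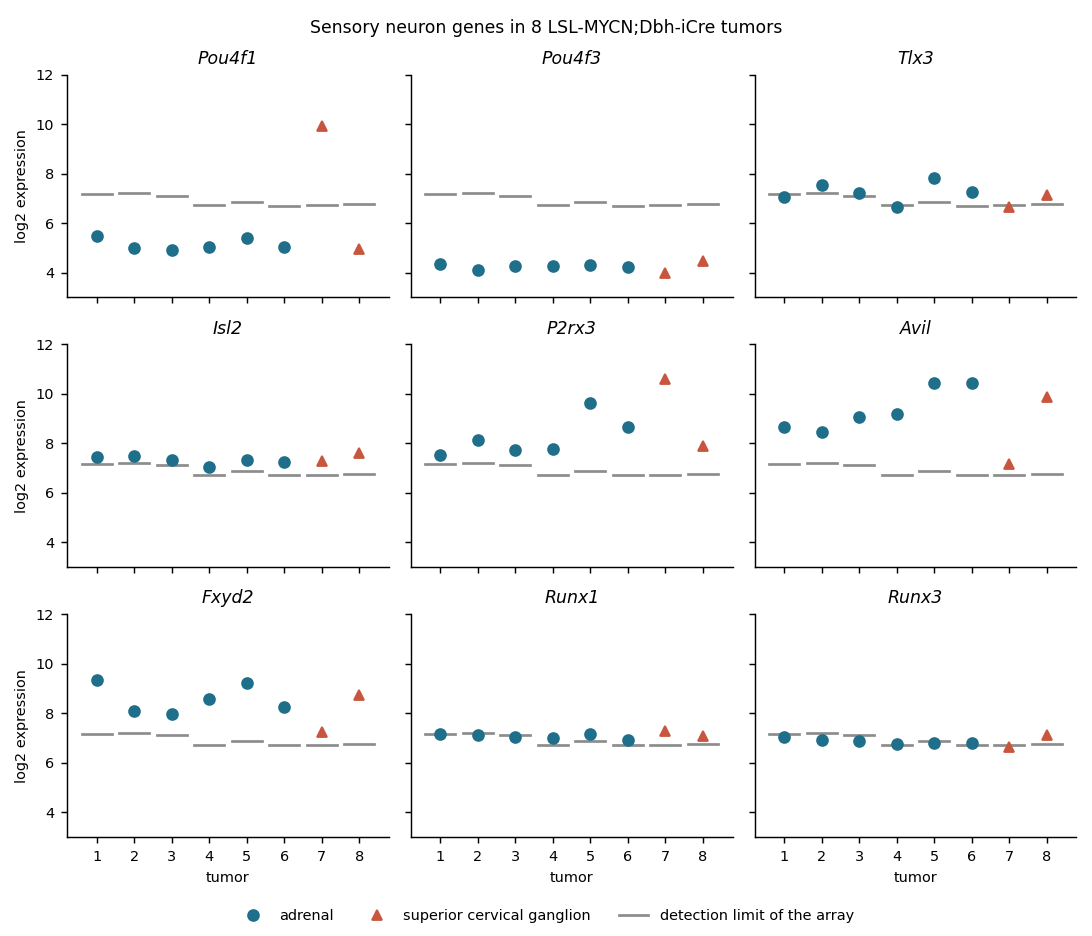
Log2 expression (vertical axis) of the 9 measured sensory neuron genes in tumors 1 to 8 (horizontal axis), each by its representing probe set, with 1 point per array, circles for adrenal and triangles for superior cervical ganglion tumors. Grey dashes mark the detection limit of each array, and Pou4f1 clears it in tumor 7 only, at 9.92, where P2rx3 is also highest, at 10.59, and Avil is lowest, at 7.16.

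The other transcription factors stayed close to the detection limit in most tumors. Further above it were Tlx3 in tumor 5, at 7.83 against a limit of 6.87, and Isl2 in tumor 8, at 7.60 against 6.77. Tlx3, a homeobox gene that sets the glutamatergic fate of dorsal horn and sensory neurons, ranged from 6.63 to 7.83 in the adrenal tumors, with a median of 7.24, and stood at 6.66 in tumor 7 and 7.14 in tumor 8. It was detected in 5 tumors, and tumor 7 was not among them. Isl2, the paralog of Isl1, was detected in all 8 tumors within a narrow range, 7.04 to 7.50 in the adrenal tumors, 7.27 in tumor 7 and 7.60 in tumor 8. Under a stricter limit, the 99th in place of the 95th percentile, Isl2 was detected in 4 tumors and Tlx3 in 3.

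Runx1 ranged from 6.92 to 7.15 in the adrenal tumors, and reached 7.30 in tumor 7 and 7.08 in tumor 8. Of its 6 probe sets, 2 were detected in any tumor and 1 was highest in tumor 7. Runx3 ranged from 6.77 to 7.04 in the adrenal tumors, and stood at 6.64 in tumor 7 and 7.13 in tumor 8. Runx3 was detected in 3 tumors at the 95th percentile and in 0 at the 99th. Cbfb, the shared partner subunit of the Runx proteins, was by contrast detected in all tumors, at 12.14 in tumor 7 and at 10.67 to 12.21 in the others. Runx genes are also expressed in blood cells, and of 12 macrophage markers 9 were detected in all tumors, with a mean level over the list of 8.26 in tumor 7, 9.12 in tumor 8 and 8.25 to 9.21 in the adrenal tumors. Of 10 measured T and NK cell markers, 0 were detected throughout and 7 in none (Cd3g, Cd3d, Cd2, Nkg7, Gzma, Gzmb and Klrd1). Of 5 megakaryocyte markers, 3 were detected in all, with a mean level of 7.88 in tumor 7, 7.49 in tumor 8 and 7.04 to 7.63 in the adrenal tumors. The part of these cells in the Runx1 and Runx3 values was not tested.

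P2rx3, the ATP-gated channel of nociceptors, was detected in all 8 tumors by its representing probe set. Its representing probe set stood at 7.53, 8.15, 7.74, 7.78, 9.63 and 8.65 in adrenal tumors 1 to 6, at 10.59 in tumor 7 and at 7.90 in tumor 8. Tumor 7 was highest, 0.96 above tumor 5, and the difference from the mean of the other tumors was 2.39, a size that 124 of 16254 genes reached upward. All 3 probe sets of P2rx3 were highest in tumor 7. Probe set 1425093_at stood at 8.48 there, against 6.72 to 7.86 in the others, and 1431321_at at 7.42, against 5.71 to 6.94. The former was detected in tumors 4 to 8 only, and the latter in tumors 5 and 7 only. Averaged over the 3 probe sets, the tumor 7 difference was 1.62 in place of 2.39. P2rx2, the subunit with which P2rx3 forms heteromeric channels, stood at 7.03 in tumor 7, within the 6.70 to 7.28 of the other tumors. P2rx2 was detected in 3 tumors, namely tumors 5, 6 and 7.

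Avil, which encodes advillin, an actin-regulating protein of the gelsolin family that is abundant in peripheral sensory neurons, ran the other way. It stood at 8.65, 8.45, 9.07, 9.20, 10.45 and 10.45 in adrenal tumors 1 to 6, at 7.16 in tumor 7 and at 9.87 in tumor 8, and was detected in all of them. Tumor 7 lay 1.28 below the lowest other tumor, and its difference from the mean of the others was -2.29. A difference at least as low was found for 152 of the 16254 genes. Advillin is also present in sympathetic neurons and in tuft cells. Of the 5 measured tuft cell markers, Trpm5, Gfi1b and Il25 were detected in no tumor. Detected in all were Dclk1, at 12.17 to 12.85, and Pou2f3, at 7.12 to 7.54 and so close to the detection limit. The part of tuft cells in the Avil values was not tested.

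Fxyd2, the gamma subunit of the Na,K-ATPase, is known from kidney tubules and from a class of nociceptors. Its representing probe set stood at 9.33, 8.10, 7.97, 8.57, 9.23 and 8.26 in adrenal tumors 1 to 6, at 7.26 in tumor 7 and at 8.75 in tumor 8. Tumor 7 was again lowest, with a difference from the mean of the others of -1.34, which 519 genes equalled or went below. Of the 4 probe sets, 3 were lowest in tumor 7, and the fourth, 1449883_at, was detected in no tumor. Names ending in x_at, which include the representing one, mark probe sets that can bind other transcripts. Probe set 1419378_a_at, without that ending, gave 6.72 in tumor 7, just below the detection limit, against 7.97 to 8.58 in the other tumors. Both 1419378_a_at and 1419379_x_at were detected in every tumor but tumor 7. Of 7 kidney tubule markers, 6 were detected in no tumor, and Umod, which defines the thick ascending limb, ranged from 3.81 to 5.00.

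**Figure D2:**
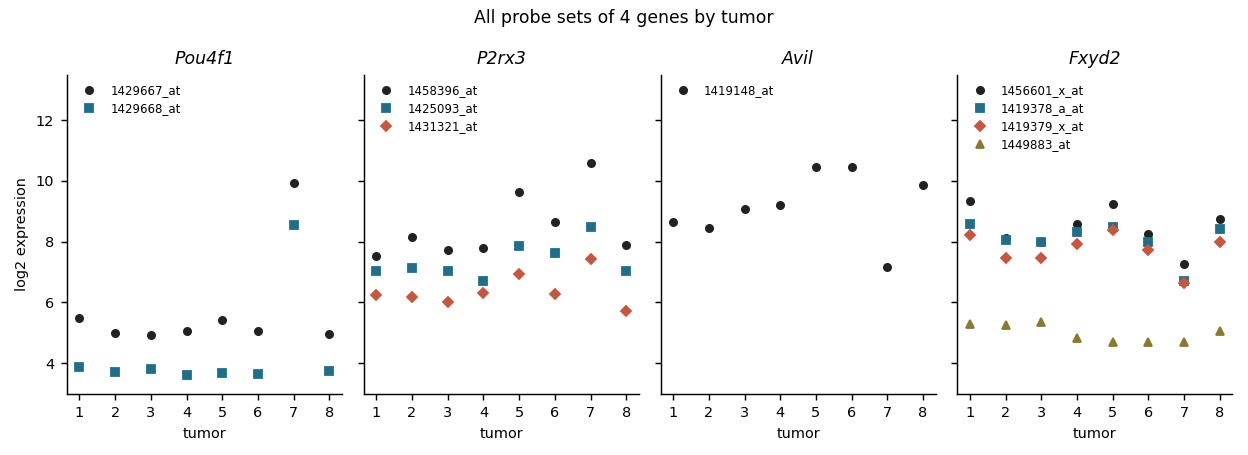
Log2 expression (vertical axis) of every single-gene probe set of Pou4f1, P2rx3, Avil and Fxyd2 in tumors 1 to 8 (horizontal axis), with 1 point per array and a symbol for each probe set. Both Pou4f1 and all 3 P2rx3 probe sets are highest in tumor 7, whereas the Avil probe set and 3 of the 4 Fxyd2 probe sets are lowest there.

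The promoters of the genes that moved furthest apart in tumor 7, among those with a RefSeq window, are shown because they differ in base composition. Windows of 250 bases before to 50 bases after a start (RefSeq, GRCm38.p6) were in the table used here for 7 of the 10 genes. The Pou4f1 window had 78.3% G and C and 57 CpG dinucleotides, the Avil window 43.0% and 2, and the median of all 32851 windows was 52.7%. The 250 bases before each start follow, 5' to 3' on the gene's own strand, with E-box matches (CANNTG) in capitals for Pou4f1 and the match to the RUNX letters TGTGGT in capitals for Avil.

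Pou4f1, chr14:104468000-104468249, minus strand: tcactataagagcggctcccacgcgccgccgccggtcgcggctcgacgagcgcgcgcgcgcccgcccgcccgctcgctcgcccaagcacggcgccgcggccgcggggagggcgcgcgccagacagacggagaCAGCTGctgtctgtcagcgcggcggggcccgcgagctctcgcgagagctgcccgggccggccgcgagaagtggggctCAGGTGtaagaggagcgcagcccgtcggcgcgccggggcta

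Avil, chr10:127000459-127000708, plus strand: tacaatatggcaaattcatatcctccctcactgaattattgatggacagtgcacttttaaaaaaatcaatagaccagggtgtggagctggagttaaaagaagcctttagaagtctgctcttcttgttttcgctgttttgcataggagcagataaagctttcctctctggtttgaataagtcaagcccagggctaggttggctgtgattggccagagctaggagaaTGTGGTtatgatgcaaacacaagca

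These motifs and genes were picked after the values had been seen, and each motif was searched on both strands. E-box letters occurred in 72.31% of all windows and the RUNX letters in 16.76%, so that a match is a description of the sequence and nothing more. The POU4 letters ATAATTAAT (0.27% of all windows), the homeodomain letters TAATTA (5.29%, a motif contained in the POU4 letters), the GATA letters GATAAG (7.44%) and the TATA letters TATAAA (13.62%) were in none of the 9 windows of these genes.

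Taking the 9 measured genes as a group, tumor 7 was the highest of the 8 tumors for 3 (Pou4f1, P2rx3 and Runx1), the lowest for 4 (Pou4f3, Avil, Fxyd2 and Runx3) and inside the range of the others for Tlx3 and Isl2. Over the 16254 genes that passed the filter, which leaves out Pou4f3, tumor 7 was highest for 17.3% and lowest for 26.4%. It lay at least 1 above every other tumor for Pou4f1 only, against 2.05% of all genes, and at least 1 below every other for Avil only, against 2.25%. These values chose the genes, and nothing is read from the counts. For the 8 genes in the filter the median difference of tumor 7 was -0.17, and for all genes -0.07. Of the 2 genes inside the range of the others, Tlx3 differed by -0.58 and Isl2 by -0.08.

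The genes whose pattern over the 8 tumors was most like that of Pou4f1 were Vhl (Pearson r = 0.997), Abhd11 (0.995), Hmga2 (0.995), Lingo3 (0.993) and Kcnk1 (0.992). Each of these correlations rests on tumor 7, the single tumor in which Pou4f1 was detected. Vhl, a ubiquitin ligase subunit, stood at 12.08 in tumor 7 against 9.26 to 9.70 elsewhere. Kcnk1, a potassium channel subunit, stood at 10.56 against 7.96 to 8.33, and Hmga2, a chromatin protein, was detected in tumor 7 alone, at 7.89 against 6.30 to 6.62.

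The wider sensory lineage factors held genes that were high and genes that were low in tumor 7. Of 19 listed, 14 were measured, 6 were found in every tumor and 7 in none (Neurog1, Neurog2, Neurod4, Six4, Eya2, Tlx1 and Foxs1). Tumor 7 was highest for 2 and lowest for 4, beside 17.3% and 26.4% of all genes, and the median difference of the list was -0.11. Isl1, the LIM homeodomain partner of Pou4f1, stood at 13.48 in tumor 7 against 13.69 to 14.05 in the other tumors. Neurod1, a proneural basic helix-loop-helix factor, stood at 11.99 in tumor 7 against 9.17 to 10.37. Shox2, a homeobox gene of mechanoreceptive neurons, stood at 8.16 against 11.93 to 13.45, and Hmx1, a homeobox gene of cranial sensory and sympathetic neurons, at 6.00 against 8.25 to 10.89.

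Sensory receptors, channels and products went in both directions in tumor 7. Of 25 listed, 21 were measured, 9 were detected in every tumor and 7 in none, the latter being Scn10a, Scn11a, Trpv1, Trpa1, Trpm8, Asic3 and Calcb, which include defining genes of nociceptors. Tumor 7 was highest for 6 and lowest for 3, beside 17.3% and 26.4% of all genes, and its difference had a median of -0.10 but a mean of 0.47 over the list. The neuropeptide gene Tac1, which encodes substance P, stood at 11.87 in tumor 7 against 4.94 to 6.79 elsewhere and was detected in that tumor alone. Gal, the galanin gene, stood at 13.46 against 7.26 to 10.75, and Nefh, the heavy neurofilament of large axons, at 12.40 against 7.53 to 9.78. Scn9a, the sodium channel of sensory and sympathetic neurons, stood at 9.98 against 11.10 to 12.64.

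The noradrenergic genes, the alternative route of the neural crest, were lowest in tumor 7 for 10 of 12 measured genes and highest for 1, Insm1, beside 26.4% and 17.3% of all genes. Their mean level over the list was 8.86 in tumor 7, 12.52 in tumor 8 and 12.21 to 12.62 in the adrenal tumors. Ddc, which makes dopamine, differed by -6.72 and the transcription factor gene Tfap2b by -6.30. The noradrenaline transporter gene Slc6a2 and Gata3 were not detected in tumor 7, and lay at least 6.21 and 4.75 lower there than the mean of the other tumors. Dbh, whose regulatory sequence drives Cre in these mice, stood at 9.07 in tumor 7 against 12.53 to 13.54 and remained detected. Th, at 10.36, and Hand2, at 12.58, were detected in tumor 7 as well.

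Relatives and partners of the 10 genes were compared as well. Of 34 listed, 29 were measured, 17 were detected in every tumor and 9 in none (Pou3f4, Tlx1, P2rx1, P2rx5, P2rx6, Vil1, Scin, Fxyd3 and Fxyd4), and tumor 7 was highest for 3 and lowest for 15, beside 17.3% and 26.4% of all genes. Among POU genes, Pou3f1 stood at 9.44 in tumor 7 against 7.04 to 7.45. Svil, of the same gelsolin and villin family as Avil, stood at 10.52 against 7.71 to 8.90, while Gsn stood at 9.65 against 10.33 to 11.24. Fxyd6 stood at 9.23 in tumor 7 against 11.23 to 11.91, and the homeobox gene Tlx2 at 7.47 against 8.59 to 9.93.

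**Figure D3:**
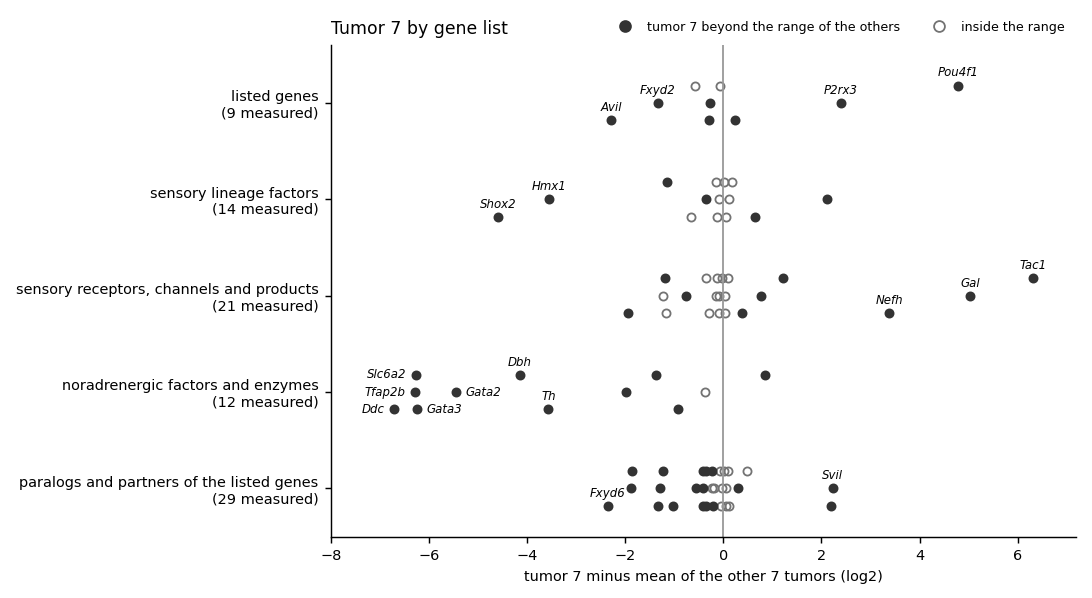
Difference of tumor 7 from the mean of the other 7 tumors (log2, horizontal axis) for each measured gene of 5 gene lists (rows), with 1 point per gene, filled where tumor 7 lies beyond the range of the other tumors and open where it lies inside, and small vertical shifts to separate points. Differences are as measured, values below the detection limit included, and the listed sensory neuron genes span -2.29 to 4.79, whereas 10 of the 12 noradrenergic genes are lowest in tumor 7.

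Markers of other cells also differed in tumor 7. Of 7 measured glia and Schwann cell markers, 4 were lowest there, beside 26.4% of all genes, but Mbp was highest, at 10.60. The mean level over this list was 6.53 in tumor 7 against 7.07 to 8.82 in the other tumors. Of 8 fast skeletal muscle markers, 5 were highest in tumor 7, beside 17.3% of all genes, and Myh1, Tnnt3 and Atp2a1 were detected in no tumor. The mean level over the muscle list was 7.51 in tumor 7, 6.85 in tumor 8 and 5.70 to 6.09 in the adrenal tumors. Immediate early genes, which respond within minutes to stimulation or handling, had a mean level of 9.15 in tumor 7, 8.59 in tumor 8 and 7.67 to 9.13 in the adrenal tumors. Their part in the values of the sensory neuron genes was not tested.

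Tumor 8, the other ganglion tumor, was compared with the 6 adrenal tumors in limma, with the spread taken from the adrenal tumors and tumor 8 assumed to vary like them. None of the 8 tested sensory neuron genes was called, with an adjusted p of 1.00 for each, and 0.0677% of all genes were called (11 of 16254, with 249 at an unadjusted p under 0.05). Pou4f1 was detected in neither group, so that its fit compared values below the detection limit, and no difference is given for it. P2rx3 differed by -0.35 (95% interval -1.94 to 1.24), Avil by 0.49 (-1.27 to 2.26) and Fxyd2 by 0.17 (-1.02 to 1.36). The intervals of P2rx3, Avil and Fxyd2 are wide enough to hold a change of at least 1 on the log2 scale, so that this comparison does not show that their levels are alike.

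The intervals of the other factors were narrower, at -0.12 (-0.99 to 0.76) for Tlx3, 0.28 (-0.19 to 0.75) for Isl2, 0.02 (-0.38 to 0.41) for Runx1 and 0.26 (-0.14 to 0.66) for Runx3. Most values of these factors lay close to the detection limit of their arrays, so that narrow intervals do not show that their levels are alike. The median over the 8 genes, Pou4f1 included, was 0.09 and over all tested genes 0.01. None of the tested genes of the sensory lineage, sensory product, noradrenergic and paralog lists was called either. Across all marker lists, Acta1 of skeletal muscle was the only gene called, at 1.99 above the adrenal mean (limma adjusted p = 0.0172).

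**Figure D4:**
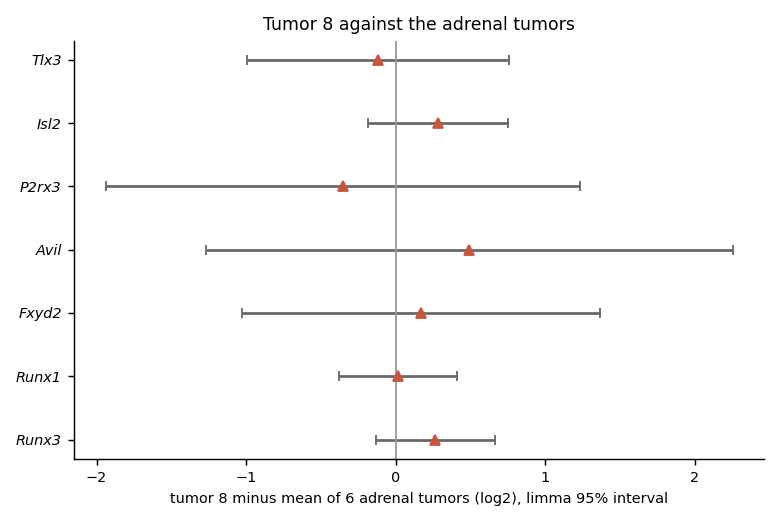
Difference between tumor 8 and the mean of the 6 adrenal tumors (log2, horizontal axis) for the 7 tested sensory neuron genes detected in at least 1 of these tumors (rows), where triangles are the difference and bars the 95% interval of limma. Every interval includes 0, and those of P2rx3 and Avil are the widest.

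Over both ganglion tumors against the 6 adrenal tumors, the differences were 1.00 for P2rx3, -0.86 for Avil, -0.58 for Fxyd2, -0.35 for Tlx3, 0.12 for Isl2, 0.12 for Runx1 and 0.02 for Runx3. No test is given for these genes, and no difference for Pou4f1, which was detected in tumor 7 alone. The limma fit of this comparison called 0.0185% of all genes (3 of 16254, with 761 at an unadjusted p under 0.05). The ganglion tumors lay far apart for some of the genes, Pou4f1 at 9.92 and 4.95, P2rx3 at 10.59 and 7.90, and Avil at 7.16 and 9.87, and closer together for others, such as Isl2 at 7.27 and 7.60 and Runx1 at 7.30 and 7.08.

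Among the adrenal tumors themselves, the representing probe sets of the products had larger SDs than those of the factors. Most values of the factors lay close to or below the detection limit, and the difference in SD was not tested. The SD over the 6 tumors was 0.88 for Avil, 0.78 for P2rx3, 0.58 for Fxyd2 and 0.41 for Tlx3, against a median of 0.24 over all 16254 genes. Other probe sets had smaller SDs, at 0.26 and 0.39 for the other detected ones of Fxyd2 and 0.43 and 0.32 for those of P2rx3. The SDs of the representing probe sets exceeded those of 97.2%, 96.3%, 92.2% and 81.6% of all genes. Pou4f1 had an SD of 0.24, below its detection limit throughout, Isl2 of 0.16, Runx3 of 0.10 and Runx1 of 0.09. Avil and P2rx3 were both highest in adrenal tumors 5 and 6, at 10.45 and 10.45 for Avil and at 9.63 and 8.65 for P2rx3, whereas Fxyd2 was highest in tumors 1 and 5. This pairing was seen in the values and was not tested. Tumor 6 was the one with liver transcripts, and tumor 5 had the lowest glia and Schwann cell level of the adrenal tumors, at 7.07. The part of these cells in the Avil and P2rx3 values was not tested.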

How the data were processed

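RNA of 8 tumors was measured on Affymetrix arrays, 1 per tumor. The authors deposited log2 values for 45101 probe sets, already corrected for background and normalized. RMA and Partek 6.6 are named in the submitters' processing notes and gcRMA in the Methods, and which of them gave these values is not settled by the file. The precision is limited by the number of arrays. No 2 arrays were identical, and no columns of comparisons made by the authors were used.

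Probe sets were named from the platform annotation, with 34958 assigned to 1 gene, 932 to several and 9211 unnamed, and 34754 matched the GRCm38.p6 gene table by Entrez identifier. Only single-gene probe sets were used. Fitted were the genes that exceeded log2 5 in 2 or more tumors, using limma 3.58.1 in R 4.3.3 (lmFit, eBayes, Benjamini-Hochberg adjustment over all 16254 genes, threshold 0.05), a step tested on simulated data. Python 3.11.15 (numpy 2.4.6, pandas 2.3.3, matplotlib 3.10.9) served for the remaining values and the plots. Named beside the 10 genes were, in each gene list, called members, up to 4 with the highest mean, up to 4 with the largest tumor 7 difference beyond the other tumors and those detected nowhere, and the 5 genes most like Pou4f1. P2rx2, Gsn and Insm1 lie outside this rule and were picked with their values in view. The genes and lists were chosen with earlier results of these data known. Alternatives covered normalization, probe set choice, filter, test, detection limit and each tumor left out.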

Additional observations from a re-analysis of the deposited data

Results flagged for a closer look

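Among the 6 adrenal tumors, the highest and the lowest value of each of 21 probe sets of the sensory neuron genes and of 73 genes of the neuronal lists were set against the rest. In 5 of these 94 groups of values, 1 tumor stood apart by a share of the whole range above Dixon's 95% critical value. Chance gives about 1 group in 20, close to the share found here, and nothing is read from these gaps. For P2rx3, probe set 1431321_at was highest in tumor 5, with a gap of 0.685 of the range. Tumor 1, the array with the large Gapdh 3' to 5' difference of 5.51, was lowest for Eya1 (gap 0.917), Slc18a2 (0.725) and Fxyd7 (0.658). Tumor 4 was lowest for Nefh (0.637).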

How the results depend on the processing

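The count of genes called between ganglion and adrenal tumors was 3 in the analysis as reported, 6 with the mean of all probe sets of a gene and 1 with the filter at the receptor-based limit, and ranged from 2 to 954 when each tumor was left out. The value of 954 came without tumor 8 and 11 came without tumor 7. The count for tumor 8 against the adrenal tumors was 11 as reported, 17 with no filter on low values and 0 with the receptor-based filter (limma, 158 genes at an unadjusted p under 0.05), and ranged from 7, without tumor 4, to 10 when each adrenal tumor was left out. The cause of these shifts was not tested. Apart from Pou4f1, detected in tumor 7 alone, the sign of the site difference turned with the ganglion tumor left out for 5 genes. Without tumor 7 and without tumor 8 it was -0.35 and 2.34 for P2rx3, 0.49 and -2.22 for Avil, 0.17 and -1.32 for Fxyd2, 0.28 and -0.04 for Isl2, and 0.26 and -0.23 for Runx3. It kept its sign for Runx1, at 0.02 and 0.23, and Tlx3, at -0.12 and -0.59. In the comparison of tumor 8 with the adrenal tumors, 93 of 94 alternative values of the 8 genes kept their direction and stayed uncalled, and the exception was Runx1, at 0.016 as reported, which ranged from -0.013, without tumor 6, to 0.033 when each adrenal tumor was left out. Several of these uncalled differences still moved by over 1.5 times. P2rx3 was -0.07 without tumor 5, Avil 0.31 without tumor 2, Tlx3 -0.24 without tumor 4, -0.06 without tumor 2 and -0.0012 without tumor 5, and Fxyd2 0.05 without tumor 3, 0.08 without tumor 2, 0.11 without tumor 6, 0.30 without tumor 5 and 0.32 without tumor 1. With the mean of probe sets Runx1 was 0.32 and Runx3 0.40. With the receptor-based filter or the mean of probe sets Pou4f1 did not pass the filter and gave no value. Its values under the other settings are counted among the 94, although Pou4f1 was detected in neither group. Of 90 alternative values for tumor 7, 88 moved by less than the SD over the other 7 tumors. The exceptions were P2rx3 (1.62) and Runx1 (0.06) with the mean of probe sets. Detection near the limit depended on where it was set, and at log2 5 Pou4f1 passed in 5 tumors and Tlx3, Runx1 and Runx3 in 8. No paired analysis was possible because the labels give the sites no shared replicate numbers.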
